A study of Mus musculus with 8 samples.

Results

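The insulin-like growth factor (IGF) pathway was examined through 10 of its genes in cultured mouse spermatogonia. They were the ligand Igf1, its receptor Igf1r, the adaptor genes Irs1 and Irs2, and the binding protein genes Igfbp2, Igfbp3, Igfbp4, Igfbp5, Igfbp6 and Igfbp7. These are 10 of the 55421 genes in the count table. All 10 were among the 20588 genes with enough counts to be tested.

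IGF1 is a secreted peptide that binds the IGF1 receptor, a tyrosine kinase at the cell surface. The activated receptor phosphorylates the adaptors IRS1 and IRS2, which pass the signal to PI3-kinase and AKT, and AKT keeps FOXO transcription factors out of the nucleus. Secreted IGF binding proteins hold IGFs outside the cell and limit or prolong their access to the receptor, and proteases that cut them release the ligand. In the testis, somatic cells are the main source of IGF1, and germ cells carry the receptor.

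The study asked how nutrient restriction and retinoic acid together start meiosis in culture, and which of the responses need Stra8. RNA-seq was performed on primary cultures of spermatogonia (SSC cultures) on the C57BL/6XDBA/2 F1 hybrid background, derived from testes of pups 6 days old and grown over irradiated embryonic fibroblasts (MEFs) from outbred CF1 mice. The cultures were labelled Stra8KO or Spo11KO and were kept for 48 h in vehicle (Veh) or in NRRA, a medium in which most of the complete SSC medium was replaced by a balanced salt solution and retinoic acid was added. The complete medium held serum, N2 (a supplement that contains insulin), FGF2 and GDNF, and NRRA diluted these along with the nutrients. Each of the 4 groups had 2 libraries. The study names collected cells as the source of RNA and does not say if feeder cells were removed. The study states 2 independent biological replicates for its sequencing, and that mice, tissues or cells differed between experimental replicates. It does not say which of these holds for the libraries of a group, or if their cultures were derived separately. Each p-value rests on the spread between libraries of a group, shared over all groups. Genotype and culture cannot be told apart.

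The 8 libraries held 20960794 to 27038868 counts. Stra8 had 2 and 0 counts in the Stra8KO Veh libraries and 169 and 170 in Stra8KO NRRA, against 28 and 12 and then 12604 and 16191 in the libraries labelled Spo11KO. Spo11 counts were not lower in the libraries labelled Spo11KO (72 and 75 in Veh, 148 and 127 in NRRA) than in Stra8KO (32 and 31 in Veh, 68 and 66 in NRRA), so its deletion could not be read from gene counts and those libraries are named by their label. Germ cell markers were present in all libraries. All 8 pan-germ markers (such as Ddx4 and Dazl) were tested, and their summed level ranged from 716 to 1756 CPM (counts per 1e+06 counts of the library, scaled by TMM). Fibroblast markers, which feeder cells carry, were present as well. All 16 of them (such as Col1a1 and Pdgfra) were tested, with a summed level in the Stra8KO libraries of 14643 to 15136 CPM in Veh and 33614 to 34235 in NRRA, and in the Spo11KO libraries of 8161 to 8353 in Veh and 17194 to 18033 in NRRA. Sums of Sertoli, Leydig, endothelial and macrophage markers were at most 62.5 CPM in any library.

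Under NRRA, the genes for the ligand, for IRS1 and for most binding proteins were higher, and Igfbp4 was lower. In Stra8KO cultures all 10 genes passed the test (edgeR quasi-likelihood, adjusted p under 0.05), 9 higher and 1 lower, where 41.9% of all tested genes passed, 21.6% higher and 20.2% lower. In Spo11KO cultures 9 of the 10 passed, 7 higher and 2 lower, against 49.9% of all genes, 24.5% higher and 25.5% lower. The median log2 fold change of the 10 genes was 0.59 in Stra8KO and 0.61 in Spo11KO, beside 0.013 over all tested genes in both. A total of 7 genes rose in both genotypes (Igf1, Irs1, Igfbp2, Igfbp3, Igfbp5, Igfbp6 and Igfbp7), Igfbp4 fell in both, Irs2 passed in opposite directions, and Igf1r passed in Stra8KO alone. The share of all tested genes that rose or fell in both genotypes was not computed, so these joint counts have no background beside them. The Irs2 call in Spo11KO was lost under most alternatives and that of Igfbp2 under some, as given below. Of the genes that passed, 4 of the 10 changed at least 2-fold in Stra8KO (10.5% of all tested genes) and 4 in Spo11KO (12.3%): Igf1, Igfbp3, Igfbp4 and Igfbp6 in each. The plot of levels by library shows each gene in all 8 libraries.

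**Figure D1:**
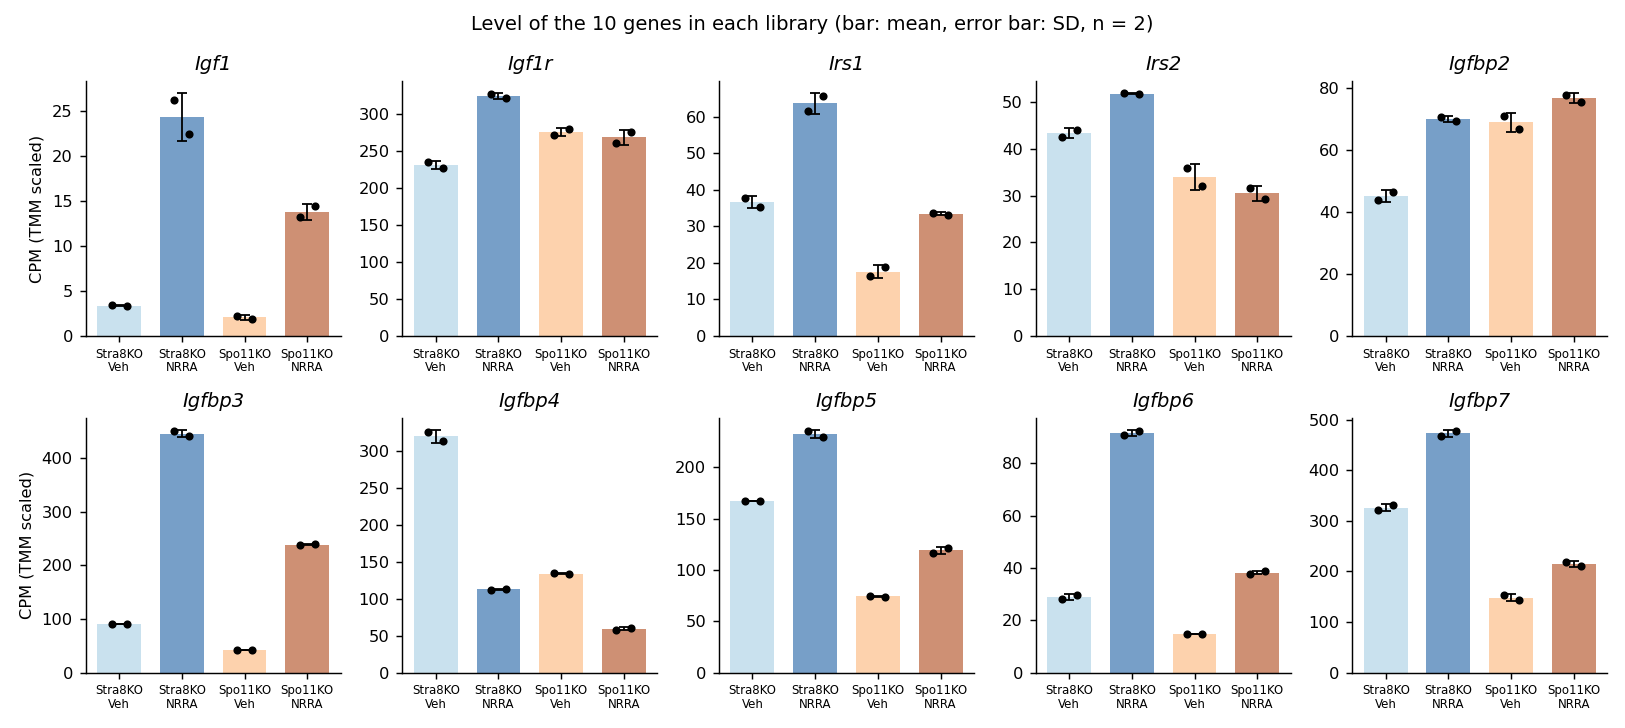
Level of each of the 10 genes in CPM (TMM scaled, linear axis from 0) in the 4 groups. Bars are means, error bars are SD (n = 2) and dots are the libraries. Igf1, Igfbp3 and Igfbp6 are higher in both NRRA groups than in either Veh group, and Igfbp4 is lower in both NRRA groups than in either Veh group.

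Fibroblast markers moved with these genes. Their summed level was higher under NRRA by 1.19 (log2) in Stra8KO and 1.09 in Spo11KO. The markers did not move as one: 10 of 16 rose and 4 fell in Stra8KO (median log2 fold change 0.63), and 11 rose and 5 fell in Spo11KO (median 0.43). In RNA of mixed cells, fewer cells of a type and less RNA per cell cannot be told apart. Smooth muscle markers (Acta2, Tagln and others, 5 of 6 higher in each genotype) went from a mean sum of 108 to 1069.5 CPM in Stra8KO and from 58.5 to 519 CPM in Spo11KO. The summed pan-germ markers were higher by 0.26 and 0.21. The part of these changes in the values of the IGF genes was not tested.

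The ligand gene Igf1 (chr10:87858265-87937042, plus strand, GRCm38) had the largest rise of the 10. It had 76 and 66 counts in the Stra8KO Veh libraries and 544 and 488 in Stra8KO NRRA, which is 3.40 and 3.32 CPM against 26.3 and 22.5 CPM. In Spo11KO it had 53 and 43 counts in Veh and 342 and 423 in NRRA, or 2.23 and 1.87 CPM against 13.2 and 14.4. The NRRA libraries lay far above the Veh libraries in both genotypes. The log2 fold change was 2.86 ± 0.13 (SE, edgeR adjusted p = 3.03e-24) in Stra8KO, 7.24-fold, and 2.75 ± 0.15 (SE, edgeR adjusted p = 2.23e-21) in Spo11KO, 6.72-fold. The second ligand gene Igf2, whose peptide acts through the same receptor, did not share this pattern. Igf2 was at 14.0 and 14.96 CPM in Stra8KO Veh and 15.1 and 19.8 in Stra8KO NRRA, a log2 difference of 0.27 ± 0.11 (SE, edgeR adjusted p = 0.0520) that moved with the library left out: it was 0.45 without Stra8KO NRRA replicate 1 (adjusted p = 0.00155) and 0.056 without Stra8KO NRRA replicate 2 (adjusted p = 0.786). It also passed in 3 of the other 6 runs that left out a library, with low genes kept (0.26, adjusted p = 0.0409), with a minimum average of 10 counts (0.28, adjusted p = 0.0462), in a fit of the 4 libraries alone (0.27, adjusted p = 0.0359) and with the replicate block (0.26, adjusted p = 0.0389). In Spo11KO it fell from 31.5 and 28.2 to 18.3 and 21.8 CPM, a log2 fold change of -0.57 ± 0.094 (SE, edgeR adjusted p = 3.72e-06). The antisense gene Igf2os had 29.7% as many counts as Igf2.

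Promoter sequences are shown for Igf1 and Igfbp3, which rose most, and for Igfbp4, which fell. Each is the 250 bases upstream of the RefSeq start (GRCm38.p6), 5′ to 3′ on the strand of the gene, with searched motifs in capitals. The RefSeq start of Igf1 lies inside the GENCODE span of the gene.
Igf1 (chr10:87860861-87861110, plus strand): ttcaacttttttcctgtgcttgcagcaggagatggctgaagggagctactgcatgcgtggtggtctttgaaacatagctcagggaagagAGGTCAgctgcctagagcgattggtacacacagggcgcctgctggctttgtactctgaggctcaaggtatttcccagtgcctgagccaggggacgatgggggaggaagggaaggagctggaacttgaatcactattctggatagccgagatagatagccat
Igfbp3 (chr11:7213924-7214173, minus strand): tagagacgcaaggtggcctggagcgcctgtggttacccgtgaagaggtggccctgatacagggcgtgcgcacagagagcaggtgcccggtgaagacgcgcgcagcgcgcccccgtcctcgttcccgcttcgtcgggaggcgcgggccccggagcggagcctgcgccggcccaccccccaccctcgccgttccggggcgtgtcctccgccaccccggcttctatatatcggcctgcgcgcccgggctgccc
Igfbp4 (chr11:99040994-99041243, plus strand): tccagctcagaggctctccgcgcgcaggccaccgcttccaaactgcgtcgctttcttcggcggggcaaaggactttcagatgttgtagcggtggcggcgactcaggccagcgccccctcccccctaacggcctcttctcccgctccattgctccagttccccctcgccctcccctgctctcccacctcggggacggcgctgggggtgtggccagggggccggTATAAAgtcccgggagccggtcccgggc
The 3 motifs were searched on both strands in the 11 promoters that matched the 10 genes: AGGTCA, the half-site bound by retinoic acid and other nuclear receptors, GTAAACA, a forkhead motif, and TATAAA, a form of the TATA box. The Igf1 promoter held AGGTCA, beginning 161 bases before the start, as did that of Igf1r (2 of 11), where 14.0% of 32851 RefSeq promoters hold it. TATAAA was in the promoters of Igfbp4, beginning 28 bases before the start, and Igfbp6 (2 of 11), against 12.4% of all promoters. GTAAACA was in none of the 11 and in 3.17% of all. No searched motif was in the Igfbp3 window, and other forms of the motifs, such as the TATATAT it holds, were not searched.

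Igf1r (chr7:67952827-68233668, plus strand) responded differently in the 2 genotypes. It was at 235 and 227 CPM in Stra8KO Veh and 327 and 321 in Stra8KO NRRA, a rise of 0.49 ± 0.039 (SE, edgeR adjusted p = 3.77e-15). In Spo11KO it was at 272 and 279 CPM in Veh and 261 and 276 in NRRA, and these libraries overlapped. The difference in Spo11KO was -0.039 ± 0.038 (SE, edgeR adjusted p = 0.426), with a 95% interval of -0.12 to 0.038, and its sign turned when libraries were scaled by total counts (0.053) or when low genes were kept (0.0092). The NRRA effects differed between the genotypes by 0.52 ± 0.055 (SE, edgeR adjusted p = 6.51e-11). By these CPM values, Stra8KO had the lowest Igf1r level of all groups in Veh and the highest in NRRA. With total-count scaling, Stra8KO and Spo11KO differed in NRRA by 0.064 (edgeR adjusted p = 0.121). Of the related receptors, Insr, which binds insulin, rose in both, from 55.7 and 50.4 to 79.3 and 79.9 CPM in Stra8KO (log2 0.58 ± 0.059 SE, edgeR adjusted p = 6.27e-12) and from 26.8 and 29.1 to 37.4 and 37.6 in Spo11KO (log2 0.42 ± 0.067 SE, edgeR adjusted p = 4.15e-07). Igf2r, which carries IGF2 to lysosomes and does not signal as a kinase, was at 1138 and 1131 CPM in Stra8KO Veh and 1104 and 1080.0 in NRRA, and in Spo11KO at 654 and 677 in Veh against 674 and 679 in NRRA. Its log2 differences under NRRA were -0.055 ± 0.034 (SE, edgeR adjusted p = 0.202), interval -0.12 to 0.013, and 0.024 ± 0.034 (SE, edgeR adjusted p = 0.590), interval -0.044 to 0.093, and the first passed under DESeq2 (-0.082, adjusted p = 0.0466) and the second with total-count scaling (0.12, edgeR adjusted p = 0.00212).

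The adaptor genes split. Irs1 (chr1:82233101-82291416, minus strand) rose from 37.8 and 35.4 to 61.7 and 65.7 CPM in Stra8KO and from 16.4 and 18.9 to 33.8 and 33.2 in Spo11KO, with no overlap between Veh and NRRA libraries. The log2 fold changes were 0.80 ± 0.066 (SE, edgeR adjusted p = 1.06e-14) and 0.92 ± 0.076 (SE, edgeR adjusted p = 6.55e-15). Irs2 (chr8:10984681-11008458, minus strand) was at 42.6 and 44.1 CPM in Stra8KO Veh and 51.9 and 51.7 in NRRA, a smaller rise of 0.26 ± 0.065 (SE, edgeR adjusted p = 0.00102). In Spo11KO, Irs2 was at 36.0 and 32.1 CPM in Veh and 31.6 and 29.3 in NRRA, a log2 fold change of -0.16 ± 0.069 (SE, edgeR adjusted p = 0.0454). This fall in Spo11KO lost its call under the DESeq2 test (-0.16, adjusted p = 0.155), under total-count scaling (-0.070) and in 6 of the 8 runs that left out a library, all but those without Spo11KO Veh replicate 2 or Spo11KO NRRA replicate 1 (-0.25 to -0.075 over the 8). The call was also lost with DESeq2 size factors (-0.16, edgeR adjusted p = 0.0536) and with low genes kept (-0.11, edgeR adjusted p = 0.275). A fit of the 4 libraries alone lost it as well (-0.16, edgeR adjusted p = 0.0732). Within each library, the ratio of Irs1 to Irs2 counts, which no scaling touches, went from 0.888 and 0.803 to 1.19 and 1.27 in Stra8KO and from 0.455 and 0.589 to 1.07 and 1.13 in Spo11KO. Irs1 shares 2822 of its 9144 exon bases with Gm9747 on the other strand, which had 1988 counts over the 8 libraries, 28.7% of those of Irs1. The strand setting of the counting was not stated, so reads of the shared bases cannot be assigned with certainty.

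**Figure D2:**
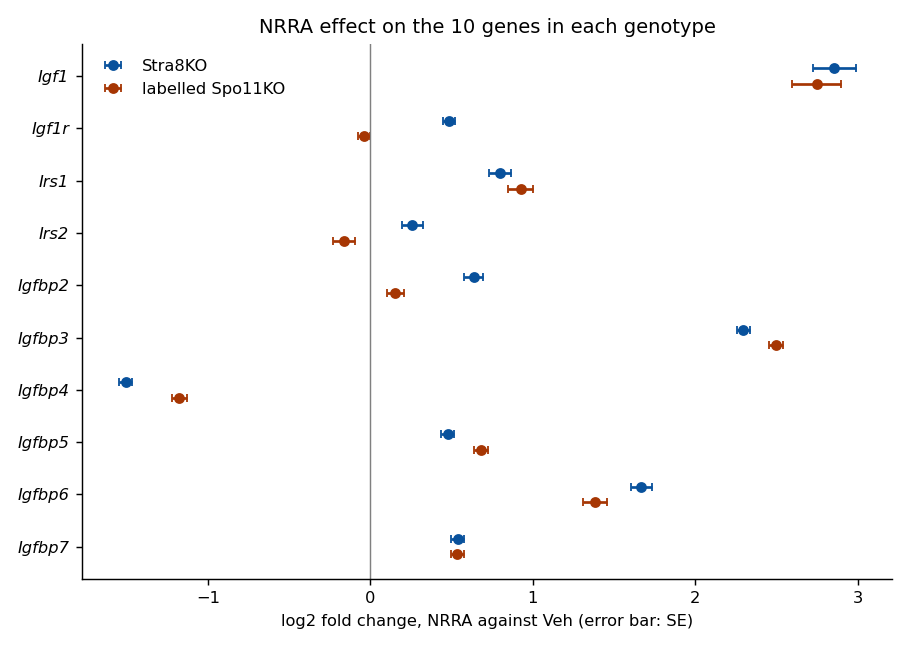
Log2 fold change of NRRA against Veh for the 10 genes in Stra8KO (blue) and in the cultures labelled Spo11KO (brown), with SE as error bars. Igf1, Igfbp3 and Igfbp6 lie above 1 in both genotypes and Igfbp4 lies below -1 in both, while Igf1r, Irs2 and Igfbp2 lie further right in Stra8KO.

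Among the binding proteins, Igfbp3 and Igfbp6 rose most. Igfbp3 (chr11:7206086-7213923, minus strand), which encodes the main carrier of IGFs in blood, was at 90.1 and 91.2 CPM in Stra8KO Veh and 450.2 and 440.4 in Stra8KO NRRA. In Spo11KO it was at 42.4 and 41.9 CPM in Veh and 237 and 239 in NRRA. The log2 fold changes of 2.30 ± 0.041 (SE, edgeR adjusted p = 3.35e-41) and 2.50 ± 0.045 (SE, edgeR adjusted p = 2.20e-41) are 4.91-fold and 5.65-fold. Igfbp6 (chr15:102144362-102149511, plus strand), whose protein prefers IGF2 over IGF1, rose from 28.0 and 29.7 to 90.8 and 92.5 CPM in Stra8KO and from 14.6 and 14.7 to 37.7 and 38.7 in Spo11KO. Its log2 fold changes were 1.67 ± 0.062 (SE, edgeR adjusted p = 4.11e-28) and 1.38 ± 0.072 (SE, edgeR adjusted p = 4.65e-22), or 3.18-fold and 2.61-fold. Both NRRA groups stood above both Veh groups for either gene.

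Igfbp4 (chr11:99041244-99054392, plus strand) moved the other way. Its protein inhibits IGF action until it is cut by the protease PAPPA. In Stra8KO, Igfbp4 was at 326 and 314 CPM in the Veh libraries and 112 and 113 under NRRA, and in Spo11KO at 135 and 133 CPM and 57.9 and 60.7. No NRRA library reached any Veh library. It fell by 1.51 ± 0.042 on the log2 scale in Stra8KO (SE, edgeR adjusted p = 2.79e-33) and by 1.17 ± 0.045 in Spo11KO (SE, edgeR adjusted p = 1.61e-27), which is 2.84-fold and 2.26-fold lower. The ratio of Igfbp3 to Igfbp4 counts within a library was 0.276 and 0.290 in Stra8KO Veh and 4.01 and 3.89 in Stra8KO NRRA, a 13.9-fold change of the mean. In Spo11KO it was 0.315 and 0.314 in Veh and 4.10 and 3.93 in NRRA, a 12.8-fold change. Igfbp3 thus had fewer counts than Igfbp4 in every Veh library and more in every NRRA library.

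The other binding protein genes changed less. Igfbp5 (chr1:72857932-72874884, minus strand), whose protein also binds extracellular matrix, rose from 167 and 167 to 235 and 229 CPM in Stra8KO (log2 0.48 ± 0.041 SE, edgeR adjusted p = 3.99e-14) and from 74.6 and 74.0 to 117 and 121 in Spo11KO (log2 0.68 ± 0.045 SE, edgeR adjusted p = 2.02e-18). Igfbp7 (chr5:77349240-77408041, minus strand), a secreted protein with low affinity for IGFs, rose from 321 and 331 to 468 and 478 CPM (log2 0.54 ± 0.038 SE, edgeR adjusted p = 5.44e-17) and from 153 and 144 to 219 and 211 CPM (log2 0.53 ± 0.040 SE, edgeR adjusted p = 3.42e-16). It shares 85 exon bases (7.03%) with Polr2b on the other strand, which had 53809 counts over the libraries, 102% of those of Igfbp7. Reads of these shared bases cannot be assigned with certainty either. Igfbp2 (chr1:72824503-72852474, plus strand), which lies 5458 bases from Igfbp5 on chromosome 1 in the opposite orientation, rose from 43.8 and 46.4 to 70.7 and 69.4 CPM in Stra8KO (log2 0.64 ± 0.057 SE, edgeR adjusted p = 1.79e-13). In Spo11KO it went from 71.0 and 66.7 to 77.8 and 75.5 CPM, a log2 fold change of 0.15 ± 0.052 (SE, edgeR adjusted p = 0.0120), and that call was lost without Spo11KO Veh replicate 2 (0.098, adjusted p = 0.211) or without Spo11KO NRRA replicate 1 (0.12, adjusted p = 0.112).

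Relative to fibroblast markers of the same library, the genes split in another way. Per 1000 counts of the 16 fibroblast markers, Igf1 went from 0.232 and 0.2196 counts to 0.767 and 0.670 in Stra8KO, and Igfbp3 from 6.15 and 6.025 to 13.2 and 13.1. Igfbp4 went from 22.3 and 20.7 to 3.28 and 3.37. The log2 change of this ratio under NRRA, in Stra8KO and then Spo11KO, was 1.67 and 1.66 for Igf1, 1.11 and 1.41 for Igfbp3, 0.48 and 0.29 for Igfbp6 and -2.69 and -2.27 for Igfbp4. For Igfbp5 it was -0.71 and -0.41, for Igfbp7 -0.65 and -0.56, and for Irs1 -0.39 and -0.17. It was -0.55 and -0.94 for Igfbp2, -0.70 and -1.13 for Igf1r and -0.93 and -1.25 for Irs2. The ratio to the marker sum was therefore higher under NRRA for Igf1, Igfbp3 and Igfbp6 and lower for the other 7 genes, in both genotypes. This split depends on the use of the sum, which rose by 1.19 and 1.09 (log2), against median marker changes of 0.63 and 0.43. Irs1 (0.80 and 0.92) rose more than the median marker in both genotypes. Igfbp2 did so in Stra8KO alone (0.64), and Igfbp5 and Igfbp7 in Spo11KO alone (0.68 and 0.53). Igf1r, Irs2 and Igfbp4 were below the median marker in both. The ratios are descriptions without a test.

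Levels between genes can be compared per length. In RPKM (CPM per kilobase of exon), Igfbp7 was the highest of the 10 in every group, at 269.7 ± 5.49 (SD, n = 2) and 391 ± 5.47 in the Veh and NRRA groups of Stra8KO, and at 123 ± 5.67 and 178 ± 4.77 in those of Spo11KO. Igf1 was the lowest in every group, at 0.339 ± 0.00540 RPKM, 2.46 ± 0.266, 0.207 ± 0.0258 and 1.39 ± 0.0882 in the same order. Second place was held by Igfbp4 in Stra8KO Veh (72.5 ± 1.98 RPKM) and by Igfbp2 in Spo11KO Veh (37.3 ± 1.63), and by Igfbp3 in both NRRA groups (142 ± 2.20 and 76.1 ± 0.339). Igf1r ranged from 13.8 ± 0.322 to 19.3 ± 0.245 RPKM over the groups. Neighbours in these orders did not overlap between libraries, except Igfbp5 and Igfbp2 in Stra8KO NRRA.

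The summed level of the 6 binding protein genes went from 449 to 718 RPKM in Stra8KO, 1.598-fold, and from 229 to 363 RPKM in Spo11KO, 1.58-fold. The mix changed as well. Igfbp4 made up 16.1% ± 0.650 (SD, n = 2) of the sum in Stra8KO Veh and 3.55% ± 0.0080 in NRRA, and 13.2% ± 0.365 and 3.70% ± 0.162 in Spo11KO. Igfbp3 went from 6.45% ± 0.027 to 19.8% ± 0.399 in Stra8KO and from 5.87% ± 0.145 to 20.97% ± 0.306 in Spo11KO. The share of Igfbp6 went from 5.77% to 11.5% and from 5.75% to 9.47%. Igfbp7 kept the largest share, 60.0% and 54.5% in Stra8KO and 53.5% and 49.0% in Spo11KO.

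**Figure D3:**
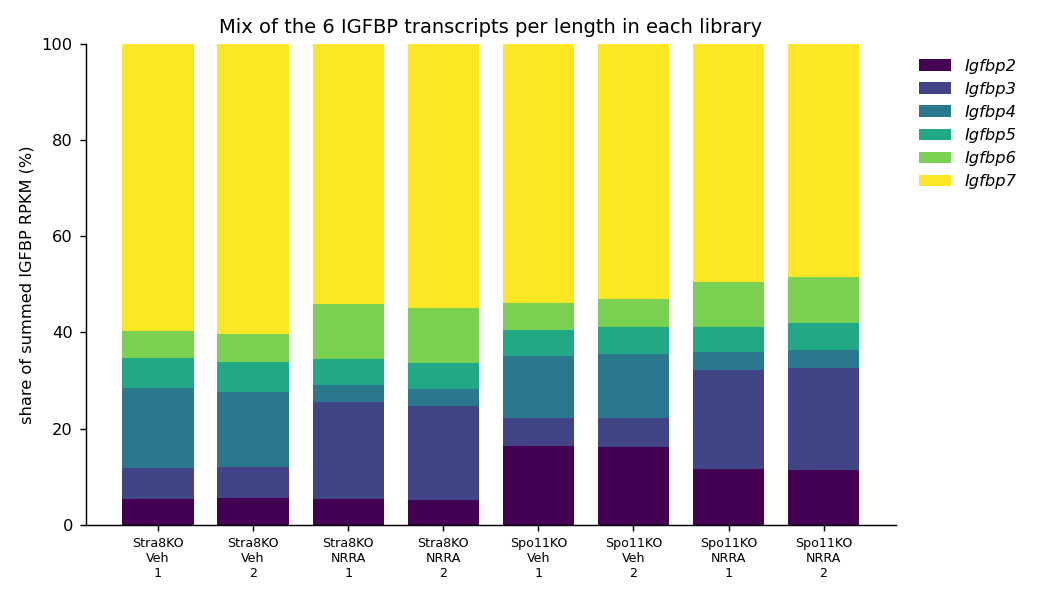
Share of each binding protein gene in the summed RPKM of the 6 genes, in percent, for each of the 8 libraries. In both genotypes the share of Igfbp4 is smaller and that of Igfbp3 larger under NRRA, and the Igfbp2 share is larger in the Spo11KO libraries (16.3% in Veh) than in Stra8KO (5.43% in Veh).

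Between the genotypes, most of the 10 genes were higher in Stra8KO cultures in either medium. In Veh all 10 passed the test, 8 higher and 2 lower in Stra8KO, where 62.3% of all tested genes passed, 31.6% higher and 30.7% lower. In NRRA all 10 passed, 9 higher and 1 lower, against 64.0% of all genes, 35.0% higher and 28.9% lower. The median log2 difference of the 10 was 1.02 in Veh and 0.91 in NRRA, beside 0.0012 and 0.066 over all tested genes. The difference was at least 2-fold for 5 of the 10 in Veh (16.2% of all tested genes) and for 2 in NRRA (18.5%). The binding protein genes Igfbp3 to Igfbp7 formed a narrow group, with log2 differences in Veh of 1.10 ± 0.048 (SE) for Igfbp3, 1.26 ± 0.041 for Igfbp4, 1.17 ± 0.044 for Igfbp5, 0.98 ± 0.078 for Igfbp6 and 1.14 ± 0.040 for Igfbp7. In NRRA these were 0.90 ± 0.038, 0.93 ± 0.046, 0.96 ± 0.041, 1.26 ± 0.058 and 1.14 ± 0.039 in the same order.

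The ligand and adaptor genes were also higher in Stra8KO. Igf1 differed by 0.71 ± 0.20 (SE, edgeR adjusted p = 0.00217) in Veh and by 0.82 ± 0.10 (SE, edgeR adjusted p = 5.78e-10) in NRRA. Irs1 differed by 1.06 ± 0.077 (SE, edgeR adjusted p = 7.03e-17) and 0.93 ± 0.065 (SE, edgeR adjusted p = 1.03e-17), and Irs2 by 0.35 ± 0.068 (SE, edgeR adjusted p = 1.63e-05) and 0.77 ± 0.066 (SE, edgeR adjusted p = 1.57e-14). Igfbp2 was lower in Stra8KO, with log2 differences of -0.61 ± 0.057 (SE, edgeR adjusted p = 2.22e-13) in Veh and -0.13 ± 0.053 (SE, edgeR adjusted p = 0.0285) in NRRA, where the call was lost in 3 of the 8 runs that left out a library (without Stra8KO NRRA replicate 1, 2 or Spo11KO NRRA replicate 1, -0.15 to -0.11 over all 8). Igf1r passed in opposite directions, -0.25 ± 0.039 (SE, edgeR adjusted p = 1.91e-07) in Veh and 0.27 ± 0.038 (SE, edgeR adjusted p = 2.40e-08) in NRRA, and the latter was 0.064 (adjusted p = 0.121) with total-count scaling.

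Cell type markers differed between the genotypes in the same contrasts. All 16 fibroblast markers were higher in Stra8KO in Veh (log2 differences 0.45 to 1.11, median 0.89) and in NRRA (0.78 to 1.39, median 0.90). All 8 pan-germ markers were lower in Veh (-1.15 to -0.85, median -0.98) and in NRRA (-1.29 to -0.56, median -1.07). Of the 10 genes, Irs1, Igf1, Igfbp3 and Igfbp6 lay inside the fibroblast marker range in Veh, and Igfbp4, Igfbp5 and Igfbp7 lay above it. Irs2, Igf1r and Igfbp2 lay between the 2 marker ranges. Per 1000 fibroblast marker counts, the log2 differences, in Veh and then NRRA, were 0.25 and -0.044 for Igfbp3, 0.41 and -0.021 for Igfbp4, 0.32 and 0.016 for Igfbp5, 0.13 and 0.31 for Igfbp6, and 0.29 and 0.19 for Igfbp7. They were 0.20 and -0.017 for Irs1, -0.14 and -0.13 for Igf1, -0.50 and -0.18 for Irs2, -1.10 and -0.68 for Igf1r, and -1.46 and -1.08 for Igfbp2. On this scale Irs2, Igf1r and Igfbp2 were thus lower in Stra8KO in both media, and Igfbp6 and Igfbp7 higher. For Igf1 the libraries of the genotypes overlapped in Veh (0.232 and 0.2196 in Stra8KO, 0.267 and 0.229 in Spo11KO). They also overlapped in NRRA (0.767 and 0.670 in Stra8KO, 0.732 and 0.839 in Spo11KO). The part of the marker differences in those of the IGF genes was not tested.

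**Figure D4:**
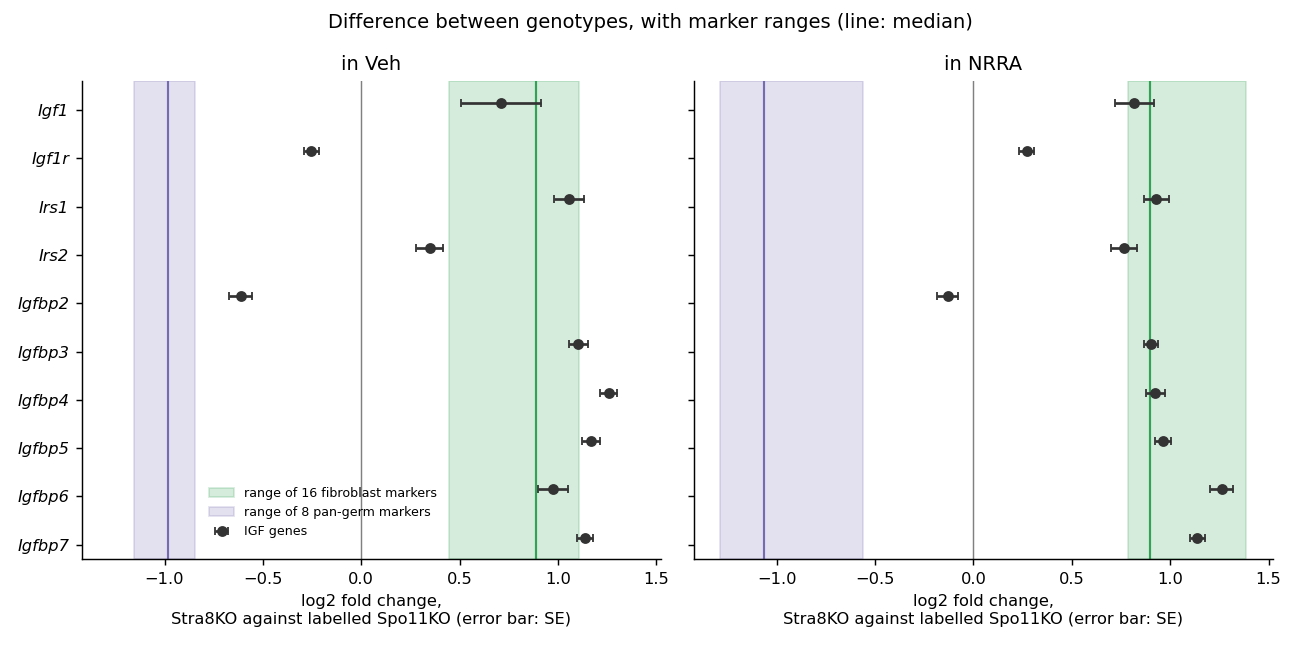
Log2 difference of Stra8KO over cultures with the Spo11KO label, in Veh (left) and NRRA (right), with SE as error bars. The green band spans the 16 fibroblast markers and the violet band the 8 pan-germ markers, with lines at their medians. Igfbp3 to Igfbp7 lie within or just above the green band, and Irs2, Igf1r and Igfbp2 lie between the bands.

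The response to NRRA itself differed between the genotypes for 7 of the 10 genes (the interaction, in which the log2 change of Spo11KO is subtracted from the one of Stra8KO), 4 higher and 3 lower, where 25.1% of all tested genes passed, 14.8% higher and 10.3% lower. None of the 10 differed at least 2-fold (0 of 10, against 5.71% of all). The differences were largest for Igf1r (0.52), Igfbp2 (0.48 ± 0.078, SE) and Irs2 (0.42 ± 0.095), and for those 3 genes the NRRA effect was higher in Stra8KO. Igfbp4 fell further in Stra8KO, with a difference of -0.33 ± 0.062 (SE). Differences for Igf1 (log2 0.11 ± 0.23 SE, edgeR adjusted p = 0.802, 95% interval -0.36 to 0.57), Irs1 (log2 -0.13 ± 0.10 SE, edgeR adjusted p = 0.416, interval -0.33 to 0.078) and Igfbp7 (log2 0.0029 ± 0.056 SE, edgeR adjusted p = 0.982, interval -0.11 to 0.11) did not pass. Undifferentiated spermatogonia markers differed in the same contrast, with all 12 higher (median 2.41). Their part in the differences of the IGF genes was not tested.

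The wider pathway moved in both directions. Of 48 other pathway genes, 44 were tested, and Igfals, Igfbp1, Ins1 and Ins2 were not. Under NRRA 18 rose and 9 fell in Stra8KO, where 41.9% of all tested genes passed, and 19 rose and 15 fell in Spo11KO, where 49.9% passed. Their median log2 fold changes were 0.057 and 0.066, beside 0.013 and 0.013 over all tested genes. Of these, 14 rose in both genotypes, 9 fell in both and 1 (Igf2bp3) passed in opposite directions, with no share of all tested genes computed for such joint counts. Igfbp1 lies 3540 bases from Igfbp3 in the opposite orientation and had 0 counts in 7 libraries and 1 count in the other.

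Genes acting on the binding proteins had the largest changes among the other pathway genes in Stra8KO. Pappa, the protease that cuts IGFBP4, rose from 34.0 and 37.8 to 165 and 148 CPM in Stra8KO (log2 2.13 ± 0.058 SE, edgeR adjusted p = 1.21e-33) and from 19.3 and 18.7 to 71.0 and 72.1 in Spo11KO (log2 1.91 ± 0.066 SE, edgeR adjusted p = 1.60e-29). Stc1, which encodes a stanniocalcin, an inhibitor of PAPPA, fell from 25.1 and 22.2 CPM to 1.69 and 1.85 in Stra8KO and from 13.0 and 15.8 to 2.05 and 1.88 in Spo11KO. Its log2 fold changes were -3.74 ± 0.15 (SE, edgeR adjusted p = 2.27e-26) and -2.88 ± 0.15 (SE, edgeR adjusted p = 3.74e-22). In every NRRA library Pappa was thus higher, and Stc1 and Igfbp4 lower, than in every Veh library. Stc2, the gene of the other stanniocalcin, did not share the fall. It rose in Stra8KO (log2 0.58 ± 0.22 SE, edgeR adjusted p = 0.0293) and did not pass in Spo11KO (log2 -0.16 ± 0.18 SE, edgeR adjusted p = 0.489). Htra1, a secreted protease that can cut IGFBP5, was higher in Stra8KO than in Spo11KO by 1.02 ± 0.068 (SE, edgeR adjusted p = 2.47e-18) in Veh and 1.11 ± 0.050 (SE, edgeR adjusted p = 5.58e-25) in NRRA. Pappa differed between the genotypes by 0.91 ± 0.073 (SE, edgeR adjusted p = 1.82e-15) and 1.13 ± 0.052 (SE, edgeR adjusted p = 2.00e-24). Irs4, a further adaptor gene, was at low counts, which rose from 25 and 23 to 126 and 152 in Spo11KO (log2 2.29 ± 0.24 SE, edgeR adjusted p = 1.25e-11). Its counts were 12 and 12 in Veh against 22 and 25 in NRRA of Stra8KO, a rise of 0.96 ± 0.37 (SE, edgeR adjusted p = 0.0330). That call in Stra8KO was lost under DESeq2 and without any 1 of the 4 Stra8KO libraries. It was also lost with low genes kept (0.94, edgeR adjusted p = 0.0760) and in a fit of the 4 libraries alone (0.95, edgeR adjusted p = 0.0542).

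**Figure D5:**
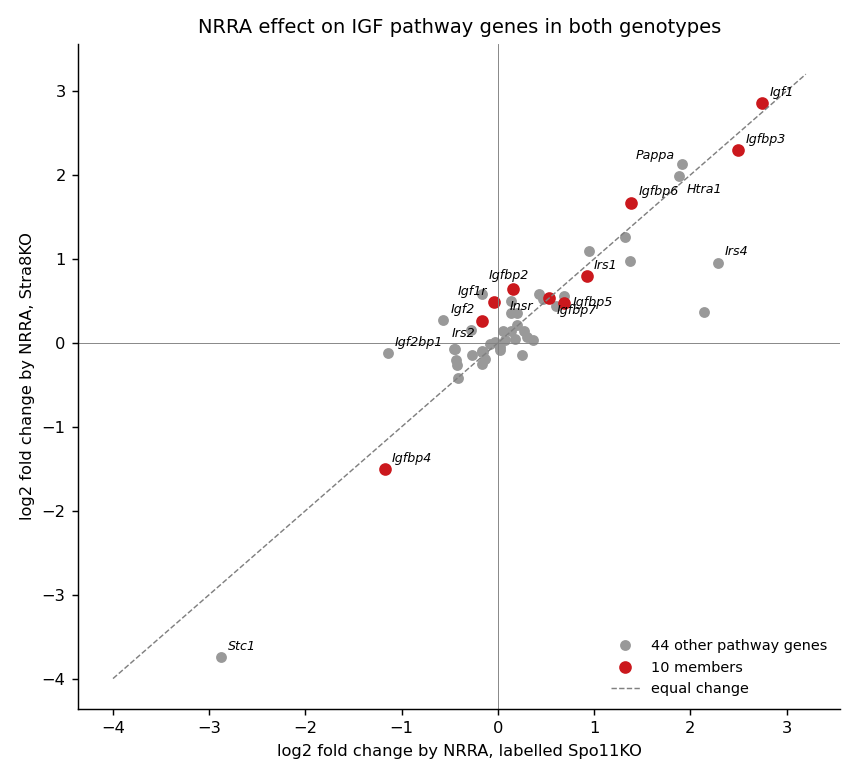
Log2 fold change under NRRA in the cultures labelled Spo11KO (horizontal) and in Stra8KO (vertical) for the 10 genes (red) and 44 other pathway genes (grey), with selected genes named. The dashed line marks equal change. Igf1, Igfbp3, Pappa and Htra1 lie at the upper right, Igfbp4 and Stc1 at the lower left, and Irs4 and Igf2bp1 off the line.

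Between the genotypes, 20 of the 44 other pathway genes were higher and 15 lower in Stra8KO in Veh (median 0.12, with 62.3% of all tested genes called), and 24 were higher and 11 lower in NRRA (median 0.22, with 64.0% called). Igf2 was lower in Stra8KO in Veh, with a difference of -1.04 ± 0.10 (SE, edgeR adjusted p = 5.11e-11), and was -0.20 ± 0.10 apart in NRRA (SE, edgeR adjusted p = 0.0843, interval -0.41 to 0.0064). That NRRA difference passed with total-count scaling (-0.41, edgeR adjusted p = 0.000813), with low genes kept (-0.26, adjusted p = 0.0126), in a fit of the 4 NRRA libraries alone (-0.28, adjusted p = 0.0311) and without Stra8KO NRRA replicate 2 (-0.42) or Spo11KO NRRA replicate 1 (-0.33), and it was -0.021 without Stra8KO NRRA replicate 1 and -0.059 without Spo11KO NRRA replicate 2. Insr was higher in Stra8KO by 0.93 ± 0.066 and 1.09 ± 0.059, and Igf2r by 0.77 ± 0.034 and 0.69 ± 0.034 (SE). In the interaction, 8 of the 44 passed higher and 5 lower, where 25.1% of all tested genes passed. The highest difference, by the rule for named genes, was that of Igf2bp1, which encodes an RNA-binding protein named for its binding of Igf2 mRNA. It went from 231 and 226 CPM to 208 and 212 under NRRA in Stra8KO and from 358 and 357 to 162 and 161 in Spo11KO, with a difference between the NRRA effects of 1.02 ± 0.054 (SE, edgeR adjusted p = 6.52e-21).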

How the data were processed

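Stranded poly(A) mRNA libraries from 8 samples in 4 groups of 2 were sequenced on an Illumina NovaSeq. The authors deposited 1 table with the raw counts of reads for each Ensembl gene. Per the submitters' processing notes, reads were handled with bcl2fastq, STAR 2.6.1c and featureCounts 1.6.4 on mm10. The annotation release, the strand setting and the treatment of reads with several matches were not given in the sources used here, so reads of overlapping genes may have been dropped or shared. Wild-type samples were not analysed here.

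The tests used edgeR 4.0.16 (with limma 3.58.1 and R 4.3.3). Genes were kept by filterByExpr (20588 of 55421, 99.88% of counts), scaled by TMM and fitted in 1 group-means model by quasi-likelihood with the robust option. Tests of the 5 contrasts were two-sided, with Benjamini-Hochberg adjustment over all tested genes, and a gene passed at an adjusted p under 0.05. Each SE is the size of the log2 fold change over the root of its F statistic. With 2 libraries a group, precision rests on a spread shared over all groups (common biological coefficient of variation 3.393%). The scripts were tested on simulated data. Alternatives were DESeq2 1.42.0, other scalings and filters, a fold threshold, a replicate block, the 4 libraries of a comparison alone and leaving out each library. RPKM used exon lengths of GENCODE M21 (GRCm38, the assembly of mm10), which held 99.67% of the identifiers. The files do not state that this annotation was used for counting.

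The 10 genes and the lists were chosen with earlier results of these data known. Named were all 10 genes, then Igf2, Igf2r and Insr, and for each contrast the other pathway gene and the FOXO target with the largest called rise and fall at an average log2 CPM of at least 1, plus the 3 genes nearest in pattern to each. Gm9747, Polr2b, Igfbp1, Stc2 and genes named as exceptions were named for position, family or call, after their values were seen.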

Additional observations from a re-analysis of the deposited data

Results flagged for a closer look

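The NRRA effect differed between the genotypes by the interaction test for 7 of the 10 genes. The difference (log2, Stra8KO minus Spo11KO) was 0.52 ± 0.055 (SE, edgeR adjusted p = 6.51e-11) for Igf1r, 0.42 ± 0.095 (SE, edgeR adjusted p = 5.18e-04) for Irs2 and 0.48 ± 0.078 (SE, edgeR adjusted p = 2.46e-06) for Igfbp2. It was -0.33 ± 0.062 (SE, edgeR adjusted p = 3.17e-05) for Igfbp4, -0.20 ± 0.061 (SE, edgeR adjusted p = 0.0105) for Igfbp3 and -0.21 ± 0.061 (SE, edgeR adjusted p = 0.00849) for Igfbp5. For Igfbp6 it was 0.29 ± 0.10 (SE, edgeR adjusted p = 0.0250), and this call was lost under DESeq2, under other scalings and without Stra8KO Veh replicate 1, Stra8KO NRRA replicate 2, either Veh library of Spo11KO or Spo11KO NRRA replicate 1. The call of Igfbp3 was lost without Stra8KO Veh replicate 2 (-0.19, adjusted p = 0.0528), and that of Igfbp5 without Spo11KO NRRA replicate 2 (-0.17, adjusted p = 0.0587).

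The same test passed for other genes named here. Igf2 differed by 0.84 ± 0.15 (SE, edgeR adjusted p = 2.80e-05) and Igf2bp1 by 1.02 ± 0.054 (SE, edgeR adjusted p = 6.52e-21). Stc1 fell further in Stra8KO, with a difference of -0.86 ± 0.25 (SE, edgeR adjusted p = 0.00820). Irs4 rose less there, with a difference of -1.33 ± 0.47 (SE, edgeR adjusted p = 0.0303) that lost its call in 8 of the alternatives. Among genes known as FOXO targets, Sesn1, a stress response gene, rose from 13.6 and 13.8 to 17.7 and 20.2 CPM in Stra8KO and fell from 18.7 and 18.3 to 12.8 and 13.4 in Spo11KO, a difference of 0.96 ± 0.13 (SE, edgeR adjusted p = 1.22e-07). Txnip, a thioredoxin inhibitor gene, fell from 189 and 188 to 84.5 and 82.1 CPM and from 250.3 and 245 to 186 and 181, a difference of -0.74 ± 0.059 (SE, edgeR adjusted p = 8.90e-15).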

How the results depend on the processing

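Across 8 kinds of alternative, 700 of 740 recomputed values for the 10 genes kept their direction and their side of the threshold, 28 kept the direction and lost the call, and 12 changed sign. Of the 50 gene-by-comparison results, 40 did not change under any of these 8 kinds, which leave out the fold threshold given below. The values that changed sign were all uncalled: Igf1r under NRRA in Spo11KO (0.053 with total-count scaling, 0.0092 with low genes kept), the interaction of Igfbp7 (-0.029 with DESeq2 size factors, -0.091 with total counts, -0.060 with low genes kept, -0.029 with the DESeq2 test, and -0.047 to 0.049 when 1 library was left out) and the interaction of Igf1 (-0.029 to 0.23 when 1 library was left out). The interaction of Igfbp6 lost its call with DESeq2 size factors (0.25), total counts (0.19), low genes kept (0.22), the DESeq2 test (0.25) and in 5 of the 8 runs that left out a library (0.24 to 0.33 over all 8). The count of the 10 genes that passed stayed within 9 and 10 in either contrast of the genotypes, at 10 under NRRA in Stra8KO, at 8 or 9 in Spo11KO and at 6 or 7 in the interaction, except where a fold change of at least 2 was also asked. With that rule 4 genes passed in Stra8KO, 4 in Spo11KO, 5 between genotypes in Veh, 2 in NRRA and 0 in the interaction, beside 10.5%, 12.3%, 16.2%, 18.5% and 5.71% of all genes (2168, 2539, 3336, 3819 and 1175 genes, against 8619, 10279, 12826, 13170 and 5172 without it). Total-count scaling moved the share of higher calls over all genes from 49.0% to 61.7% under NRRA in Spo11KO, from 54.8% to 39.5% between genotypes in NRRA and from 59.0% to 38.7% in the interaction, and with low genes kept that of the interaction was 45.9%. The median of all genes was then 0.10, -0.14 and -0.080, and -0.11 between genotypes in Veh. The cause of these changes was not tested. The correlations of deviations between equal replicate numbers ran from -0.071 to 0.14. They were 0.0076 between the 2 Stra8KO groups and 0.14 between the 2 Spo11KO groups. With 1 difference per group they cannot show if libraries were paired. With the replicate number as a block, 10 of the 10 genes passed in Stra8KO, 9 in Spo11KO, 10 and 10 between genotypes and 7 in the interaction. Depth limits genes with few counts, such as Irs4 (12 to 152 per library), Klf15 (18 to 82), Stc1 (35 to 562) and Igf1 (43 to 544).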

Other observations

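Of 16 genes that FOXO transcription factors are known to control, 15 were tested and G6pc was not. Under NRRA 7 rose and 6 fell in each genotype (median log2 fold change 0.12 in Stra8KO and 0.23 in Spo11KO), where 41.9% and 49.9% of all tested genes passed. Of the 15, 6 rose in both and 5 fell in both, and Sesn1 and Sod2 passed in opposite directions. Here too the joint share over all tested genes was not computed. Klf15, a transcription factor gene of fasting metabolism, rose from 0.805 and 0.906 to 3.67 and 3.46 CPM in Stra8KO (log2 2.06 ± 0.28 SE, edgeR adjusted p = 2.12e-08) and from 0.758 and 0.827 to 3.16 and 2.42 in Spo11KO (log2 1.80 ± 0.28 SE, edgeR adjusted p = 2.98e-07). Cited2, a transcriptional co-regulator gene, fell from 89.8 and 84.0 to 35.1 and 39.8 CPM (log2 -1.21 ± 0.062 SE, edgeR adjusted p = 1.27e-22) and from 74.4 and 71.4 to 31.3 and 33.5 (log2 -1.17 ± 0.061 SE, edgeR adjusted p = 3.90e-22). Between the genotypes, 8 of the 15 were higher and 4 lower in Stra8KO in Veh, where 62.3% of all tested genes passed, and 9 were higher and 3 lower in NRRA, where 64.0% passed. Pdk4, which encodes a kinase that inhibits pyruvate dehydrogenase, was higher in Stra8KO by 1.51 ± 0.13 in Veh and 1.52 ± 0.093 in NRRA (SE). Bnip3, a mitophagy gene, was lower, with differences of -1.21 ± 0.074 and -1.21 ± 0.071 (SE).

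Genes with the most similar pattern were found among 12965 tested genes, by the Euclidean distance between the 4 group means of log2 CPM after centring. The distances describe 4 points that share their libraries and have no test. Nearest to Igf1 were Pde8b, Me3 and Srpx (distances 0.139, 0.254 and 0.270). Nearest to Igfbp3 were Siglecg, Fmod and Angpt4 (distances 0.0547, 0.121 and 0.144), and nearest to Igfbp4 were Gfod1, Cd44 and Gchfr (distances 0.0561, 0.0601 and 0.0723). Igfbp6 was nearest to Cyp7b1, Lrrc32 and C1rl (distances 0.0850, 0.0937 and 0.106), Igfbp5 to Ccdc102a, Moxd1 and Thbs1 (distances 0.0369, 0.0778 and 0.0788) and Igfbp7 to Dapk1, Rcor3 and Ppm1h (distances 0.00870, 0.0407 and 0.0434). Igfbp2 was nearest to Rnf180, Tmtc4 and Mageb2 (distances 0.0433, 0.0747 and 0.0829). Igf1r was nearest to Rprd1b, Plxnb1 and Sec14l1 (distances 0.0346, 0.0628 and 0.0681), Irs1 to Gas6, Arhgap24 and Tmem86a (distances 0.0495, 0.0549 and 0.0559) and Irs2 to Ndufv3, Adck2 and Podnl1 (distances 0.0211, 0.0368 and 0.0511). Only 1 gene lay within a distance of 0.2 of Igf1, against 143 for Irs2. Among the 10 genes themselves, Igfbp5 and Igfbp7 were closest (0.133) and Igf1 and Igfbp4 farthest apart (4.12).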
